A study of Mus musculus with 8 samples.

Results

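Glutaminase and GABA metabolism genes were followed here as 8 genes, Gls2, Glud1, Got2, Gad1, Gad2, Slc32a1, Abat and Aldh5a1, out of 55341 gene symbols in each count file. They were chosen by symbol, as steps on the way from glutamine through glutamate to GABA and on to its breakdown, at a time when results of the PTU+TH against PTU contrast, including the rise of Gls2 and the levels of Gad1 and Gad2, were already known. Their differences between the groups are therefore given as a description, without p-values. All 8 genes were found by symbol and all 8 passed the filter on low counts that left 17355 genes for testing.

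RNA came from sorted nuclei of GABAergic neurons of the cortex of juvenile mice, 1 library per mouse, in which a Cre-dependent nuclear fluorescent reporter marks those neurons. The PTU group (mice 9, 10, 11 and 12, n = 4) was made hypothyroid by giving propylthiouracil, which blocks thyroid hormone synthesis, to their dams during gestation. The PTU+TH group (mice 13, 14, 15 and 16, n = 4) had the same hypothyroidism and the same reporter, and received thyroid hormone (TH) by intraperitoneal injection 24 h before the brain was collected. The Cre driver, age in days, sex and litter are not given in the sources used here, and both groups are hypothyroid, so neither shows the level of a euthyroid mouse.

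GABA, the main inhibitory transmitter of the cortex, is made from glutamate by the glutamate decarboxylases GAD67 (Gad1) and GAD65 (Gad2), which need pyridoxal phosphate. The glutamate comes largely from glutamine, which glutaminase hydrolyses in mitochondria; Gls2 encodes the liver-type form of this enzyme. After packing into vesicles by VGAT (Slc32a1) and release, GABA is taken up again and broken down in mitochondria by GABA transaminase (Abat) and succinic semialdehyde dehydrogenase (Aldh5a1), while glutamate dehydrogenase (Glud1) and mitochondrial aspartate aminotransferase (Got2) link glutamate to the citric acid cycle.

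Library totals lay between 21762810 and 29084071 counts. The TH target Hr stood at 1.05 to 2.22 CPM (the count scaled to a common library size, with TMM factors) in PTU and at 24.7 to 28.5 CPM in PTU+TH, so no library went against its label. Of 13 tested genes of a 15-gene GABAergic marker list without any of the 8 genes, 0 were called, and they summed to 6484 to 10500 CPM in PTU against 7531 to 9645 CPM in PTU+TH; Dlx1 and Dlx6, which lie wholly inside other gene models, were listed at 0. Summed markers of other cells overlapped between the groups, given here for PTU and then PTU+TH, with 43.9 to 124.5 and 52.6 to 162.1 CPM for excitatory neurons, 185.4 to 312.6 and 186.4 to 437 CPM for astrocytes, 96.2 to 123.2 and 94.2 to 192.7 CPM for oligodendrocytes, 8.27 to 23.97 and 10.4 to 33.0 CPM for their precursors, 10.0 to 15.2 and 13.7 to 30.4 CPM for microglia, and 18.3 to 134.3 and 24.1 to 92.2 CPM for endothelium. Markers of these 6 classes had 0 calls. Gfap and P2ry12, which also lie wholly inside other gene models, were listed at 0, which is not read as absence. Most of the GABAergic sum came from Erbb4 (4189 CPM on average in PTU, 3993 in PTU+TH) and Adarb2 (2862 and 2675). By point estimate 10 of the 13 GABAergic markers were lower in PTU+TH (median log2 fold change -0.09), 7 of 8 excitatory markers higher (median 0.07), 5 of 5 microglial markers higher (median 0.63) and 5 of 6 oligodendrocyte markers higher (median 0.47). Of astrocyte markers 5 of 7 were higher (median 0.14), of precursor markers 3 of 4 (median 0.09) and of endothelial markers 1 of 5 (median -0.08), and their part in the results below was not tested. In bulk nuclei, fewer cells of a type and less RNA per cell cannot be told apart.

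Because both decarboxylase genes are paralogs, a read could in principle be counted for the wrong one. The coding stretches below hold the longest run of identical bases between Gad1 and Gad2, in capitals, with 20 bases on either side in lower case, all read 5′ to 3′ on the coding strand from GENCODE M21 transcripts (build GRCm38). Both genes lie on the plus strand of chromosome 2, and positions below count from the first base of the start codon.

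Gad1, coding bases 1184 to 1240: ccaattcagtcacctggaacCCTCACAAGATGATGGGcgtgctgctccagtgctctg

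Gad2, coding bases 1160 to 1216: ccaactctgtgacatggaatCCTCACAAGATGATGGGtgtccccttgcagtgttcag

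The longest shared run was 17 bases, inside a window of 57 bases that differs at 13. In the transcripts of Gls2, 1.28% of all distinct stretches of 50 bases also occurred in another gene, all of them in Spryd4, whose end overlaps that of Gls2 on the opposite strand by 97 bases. For Abat this share was 0%, and for Gad1, Gad2 and Glud1 it was 1.49%, 1.17% and 6.49%. It was 25.6% for Got2, the most with Gm10874, 23.7% for Slc32a1, with the antisense gene Gm14205, and 13.7% for Aldh5a1, so counts of these 3 genes are less certain; only 17.2% of the exon bases of Aldh5a1 are free of other gene models.

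Gls2, the liver-type glutaminase gene, had the largest difference of the 8 genes between the groups. Gls2 (chromosome 10, 128194457 to 128210004, plus strand) stood at 14.4, 15.6, 15.6 and 17.2 CPM in PTU mice 9, 10, 11 and 12, from 315 to 415 counts per library. In PTU+TH mice 13, 14, 15 and 16 it stood at 59.1, 59.8, 49.5 and 47.0 CPM, from 988 to 1739 counts. Every PTU+TH library lay above every PTU library, and the lowest PTU+TH value was well beyond the range of the PTU mice. Means were 15.7 ± 1.17 CPM without TH and 53.9 ± 6.55 CPM with it (SD, n = 4 per group), a log2 fold change of 1.78 (SE 0.11), or 3.43-fold, with a 95% interval from 2.90-fold to 4.06-fold.

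The lower pair of PTU+TH values came from mice 15 and 16, in which 4 genes of the Y chromosome summed to 0 counts. Every PTU library had such counts, so the groups were not balanced in this. Whether the lower values go with the missing Y-linked counts was not tested. The sum was 7960 to 11548 in the 6 libraries other than mice 15 and 16. In those 6 libraries alone the log2 fold change of Gls2 was 1.92, and leaving out each of the 8 libraries in turn gave 1.73 to 1.84. Mouse 15 had the highest summed markers of excitatory neurons, astrocytes, oligodendrocytes, their precursors and microglia, and without it the value was 1.82. Spryd4, the overlapping gene on the other strand, had 92 to 249 counts in PTU and 102 to 173 in PTU+TH (log2 fold change 0.04, adjusted p = 0.98 by edgeR).

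Among the 8 members, 1 (Gls2) was called higher and 0 lower by the quasi-likelihood test of edgeR with p adjusted over all genes (under 0.05), which called 2.12% of all tested genes, 1.49% higher and 0.634% lower in PTU+TH. Groups did not overlap in 2 members, Gls2 and Got2, against 8.71% of all tested genes. Since the contrast was known when the genes were chosen, nothing is read from these counts. By absolute log2 fold change Gls2 ranked 44 of 17355 genes, while the other 7 members ranked from 3834 (Slc32a1) to 14121 (Glud1). The median log2 fold change was 0.12 over the 8 members, 0.10 over the 7 other than Gls2 and -0.01 over all tested genes.

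**Figure D1:**
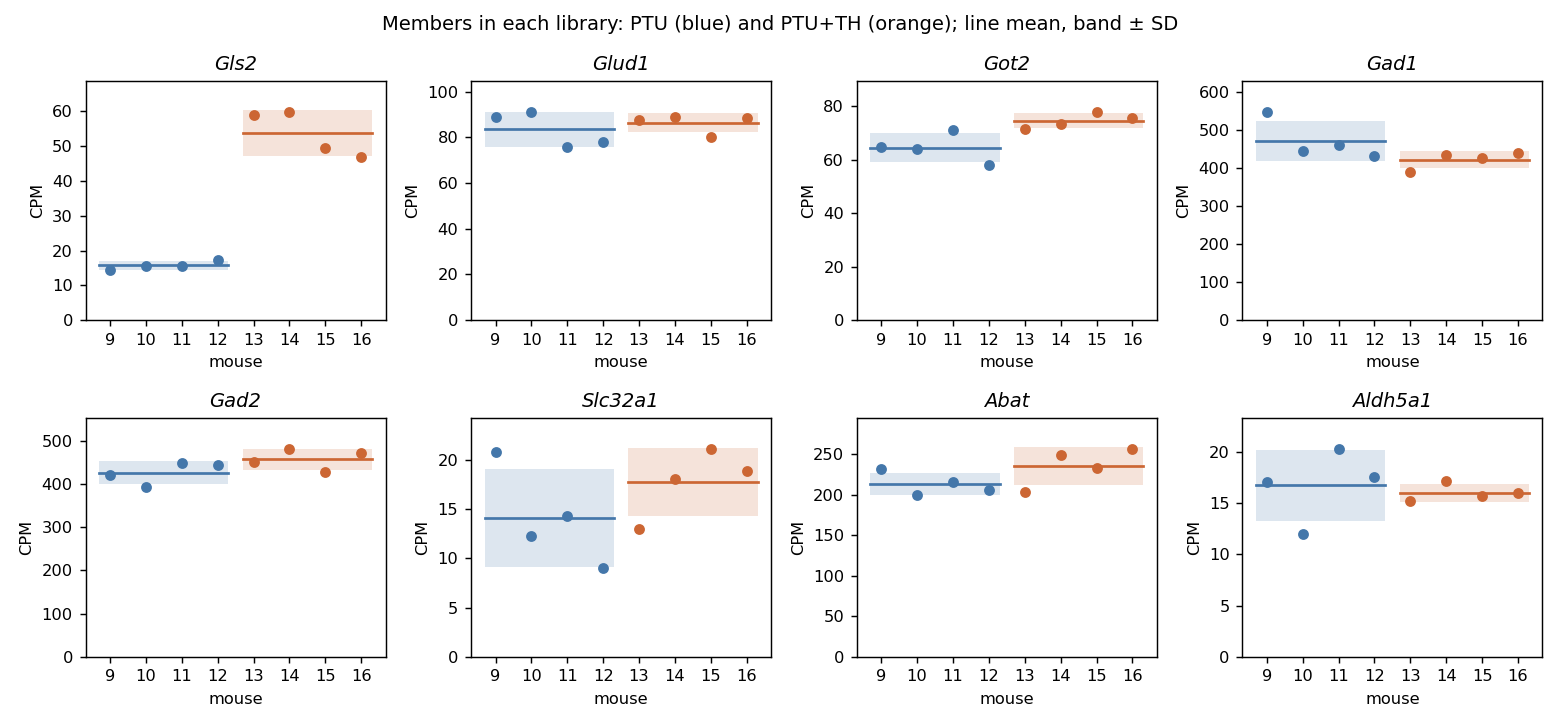
Abundance of the 8 genes in CPM (y axis, from 0) in each mouse (x axis), with PTU in blue and PTU+TH in orange, and the group mean as a line with ± 1 SD as a band. Gls2 lies at 14.4 to 17.2 CPM in PTU mice, against 47.0 to 59.8 CPM in PTU+TH mice, and Got2 is the other gene whose groups do not overlap.

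The mitochondrial enzymes that interconvert glutamate were not called. Got2 (chromosome 8, 95864134 to 95888547, minus strand) stood at 64.6, 64.0, 71.3 and 58.1 CPM in PTU mice, against 71.6, 73.4, 77.8 and 75.7 CPM in PTU+TH mice. The lowest PTU+TH library, mouse 13, was 71.6 CPM and the highest PTU library, mouse 11, was 71.3 CPM, so the groups were apart by less than the spread within either. The log2 fold change was 0.21 (SE 0.09, 95% interval 0.03 to 0.40).

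Glud1 (chromosome 14, 34310727 to 34345265, plus strand) stood at 89.0, 91.0, 75.9 and 77.9 CPM in PTU mice, against 87.7, 88.8, 80.1 and 88.6 CPM in PTU+TH mice. The groups overlapped, with mouse 10 of PTU the highest and mouse 11 of PTU the lowest of all 8. The log2 fold change was 0.05 (SE 0.09), with an interval of 0.91-fold to 1.18-fold.

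The decarboxylase genes had the highest levels per length of the 8 genes and were not called. Gad1 (chromosome 2, 70553072 to 70602014, plus strand) stood at 546.4, 443.2, 461.2 and 432.6 CPM in PTU mice, against 389.4, 434.4, 425.3 and 438.4 CPM in PTU+TH mice. Mouse 9 was the highest and mouse 13 the lowest of all 8, and the rest lay within 425.3 to 461.2 CPM. The log2 fold change was -0.16 (SE 0.12, interval 0.75-fold to 1.07-fold), and -0.07 without PTU mouse 9. Gad1os, an antisense gene that overlaps Gad1 by 10286 bases, had 100 to 165 counts in PTU and 76 to 106 in PTU+TH (log2 fold change -0.55, adjusted p = 0.33 by edgeR), and since the SMART-Seq v4 cDNA used here does not keep the strand, reads of such partners cannot be told apart.

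Gad2 (chromosome 2, 22622205 to 22693874, plus strand) stood at 420.6, 392.4, 448.2 and 445 CPM in PTU mice, against 450.3, 481.3, 427.2 and 472.8 CPM in PTU+TH mice. Its point estimate had the opposite sign to that of Gad1, with a log2 fold change of 0.10 (SE 0.11, interval 0.91-fold to 1.27-fold). Gad1 took 56.5%, 53.0%, 50.7% and 49.3% of the counts of both decarboxylase genes in PTU and 46.4%, 47.4%, 49.9% and 48.1% in PTU+TH. The groups overlapped in this share only through mouse 15 of PTU+TH, which lay above mouse 12 of PTU, and the means were 52.4% ± 3.15 and 48.0% ± 1.48 (SD, n = 4 each).

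Slc32a1, which encodes the vesicular GABA transporter (chromosome 2, 158610767 to 158615748, plus strand), varied most between mice. It stood at 20.8, 12.2, 14.3 and 9.01 CPM in PTU mice, against 13.0, 18.1, 21.1 and 18.9 CPM in PTU+TH mice, from 206 to 571 counts. The highest PTU library, mouse 9, was 2.31 times the lowest, mouse 12, and the groups overlapped. The log2 fold change was 0.33 (SE 0.23, interval 0.89-fold to 1.78-fold), 0.59 without PTU mouse 9 and 0.14 without PTU+TH mice 15 and 16, and the gene was not called in any of these fits.

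Of the breakdown genes, Abat (chromosome 16, 8513429 to 8621568, plus strand) stood at 231.8, 200.3, 215.4 and 206.2 CPM in PTU mice, against 203.5, 248.8, 232.7 and 256.6 CPM in PTU+TH mice. Mouse 13 of PTU+TH lay among the PTU libraries and the other 3 lay above all of them. The log2 fold change was 0.14 (SE 0.10, interval 0.95-fold to 1.29-fold).

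Aldh5a1 (chromosome 13, 24907579 to 24937661, minus strand), the next enzyme of that route, stood at 17.1, 12.0, 20.3 and 17.5 CPM in PTU mice, against 15.2, 17.2, 15.7 and 15.9 CPM in PTU+TH mice. All PTU+TH values lay inside the PTU range. The log2 fold change was -0.06 (SE 0.15, interval 0.76-fold to 1.20-fold), and it was 0.04 without PTU mouse 11.

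Relative to the group mean of log2 CPM, 6 of the 8 genes were above it in mouse 9, 1 in mouse 10, 5 in mouse 11 and 3 in mouse 12. In PTU+TH, 2 were above it in mouse 13, 7 in mouse 14, 3 in mouse 15 and 6 in mouse 16. The coefficient of variation in PTU ran from 6.07% (Gad2) to 35.3% (Slc32a1), and in PTU+TH from 3.61% (Got2) to 19.3% (Slc32a1). Gls2 had 7.43% and 12.2%.

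Levels of different genes were compared per length, on CPM per kb, because longer genes collect more reads. Per kb of merged exons the PTU order was Gad2 (72.6 ± 4.40), Gad1 (61.6 ± 6.77), Abat (27.5 ± 1.77), Glud1 (19.8 ± 1.82), Got2 (13.4 ± 1.12), Slc32a1 (5.04 ± 1.78), Gls2 (4.52 ± 0.34) and Aldh5a1 (2.96 ± 0.61; SD, n = 4). In PTU the ranges over mice overlapped between Gad2 and Gad1, between Slc32a1 and Gls2 and between Slc32a1 and Aldh5a1. In PTU+TH those of Gad2 (72.7 to 81.9) and Gad1 (51.0 to 57.4) were apart. On this scale Gad2 lay above Gad1, and Slc32a1 above Aldh5a1, within each of the 8 libraries. In PTU+TH the range of Gls2, 13.5 to 17.2, had moved up to that of Got2, 14.8 to 16.1. Since nuclear RNA holds introns and the treatment of introns is not given in the sources used here, the same was computed per kb of gene body: Gad1 (9.62 ± 1.06 in PTU) then came before Gad2 (5.95 ± 0.36), Slc32a1 was placed 3 in both groups, and Gls2 moved from place 7 in PTU (1.01 ± 0.08) to place 4 in PTU+TH (3.46 ± 0.42). The place of Aldh5a1 depended on the length used, since only 17.2% of its exon bases are free of other gene models and the counting of overlapped bases is not given in the sources used here. It was 8 in both groups per kb of exon and per kb of gene body. Per kb of exon free of other gene models, a scale added after the values were seen, Aldh5a1 averaged 17.2 ± 3.55 CPM without TH and 16.5 ± 0.88 CPM with it, in places 5 and 6. On that scale Slc32a1 ranged over 4.34 to 10.0 CPM without TH and 6.26 to 10.2 CPM with it. Gls2 averaged 4.65 ± 0.35 and 15.9 ± 1.94 CPM (SD, n = 4 per group), so by mean Gls2 went from place 8 to place 7. Without TH the range of Gls2, 4.26 to 5.10, overlapped that of Slc32a1. With TH its range, 13.9 to 17.7, overlapped those of Aldh5a1 (15.6 to 17.7) and Got2 (16.3 to 17.7).

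**Figure D2:**
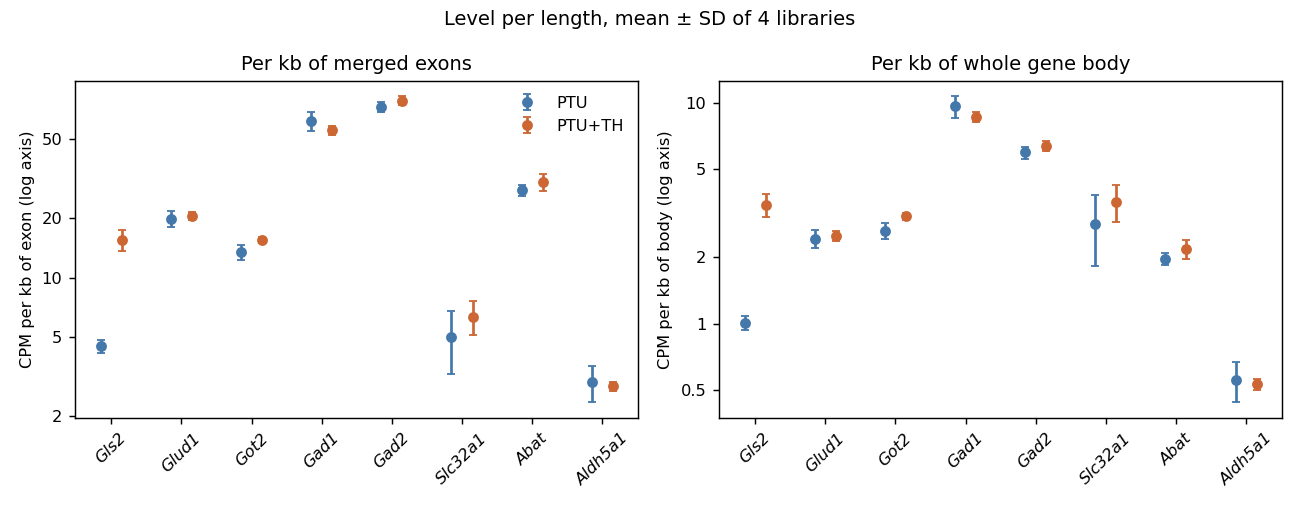
Level of each gene in CPM per kb (log axis), per kb of merged exons on the left and per kb of gene body on the right, as the mean of 4 libraries with ± 1 SD bars, PTU in blue and PTU+TH in orange. Gls2 goes from 4.52 to 15.5 per kb of exon, and the order of Gad1 and Gad2 differs between the scales.

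The wider pathway was read from 58 other genes of 9 roles, of which 55 passed the filter. They were listed from general knowledge and not for how they moved, but at a time when earlier results of these data were known. In this list 1 gene was called higher and 0 lower in the edgeR fit over all genes, which is 1.82% of the list beside 2.12% of all tested genes. An unadjusted p under 0.05 was found for 11 genes, or 20%, beside 12.8% of all tested genes. The groups did not overlap in 10 genes, 8 higher and 2 lower in PTU+TH, or 18.2%, beside 8.71% of all tested genes; the list was not tested against the rest. The median log2 fold change of the list was 0.10.

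The called gene was Gfpt2 (chromosome 11, 49794178 to 49838613), which uses glutamine as the nitrogen donor in the first step of hexosamine synthesis. It stood at 44.5, 42.4, 41.6 and 44.3 CPM in PTU mice, against 91.0, 96.9, 74.1 and 78.7 CPM in PTU+TH mice, with no overlap. Gfpt2 rose by a log2 fold change of 0.98 (SE 0.10, adjusted p = 0.000145 by edgeR) and passed under each of the 16 alternatives. As with Gls2, mice 15 and 16 were the lower PTU+TH libraries, and the log2 fold change without them was 1.12. Its paralog Gfpt1 lay at 52.3 to 60.1 and 45.2 to 54.0 CPM (log2 fold change -0.15, adjusted p = 0.577 by edgeR). Of the 9 glutamine-using enzymes listed, Gfpt2 was the 1 called. Groups did not overlap in 2 of the 9, Gfpt2 and 1 that was lower in PTU+TH and not called.

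Glutamine supply had 7 tested genes and 0 calls. Slc1a5, an exchanger that carries glutamine and other neutral amino acids, stood at 2.84, 3.20, 2.82 and 2.23 CPM in PTU mice, against 5.57, 3.85, 4.27 and 4.76 CPM in PTU+TH mice. These groups did not overlap, yet the gene was not called (log2 fold change 0.73 with SE 0.21, adjusted p = 0.114 by edgeR). Slc38a1, a neuronal glutamine carrier, was at 152.7 ± 11.2 and 170.2 ± 16.9 CPM, and Glul, the glutamine synthetase of astrocytes, at 13.7 ± 3.86 and 14.5 ± 4.13 CPM (SD, n = 4 per group, adjusted p = 0.585 and 0.953 by edgeR).

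Among the other enzymes that convert glutamate, 10 genes were tested and 0 called. Got1, the cytosolic counterpart of Got2, came nearest, with 84.40, 60.1, 64.8 and 57.5 CPM in PTU and 84.41, 101.9, 98.3 and 88.0 CPM in PTU+TH. The PTU library of mouse 9 reached the lowest PTU+TH library, mouse 13, within 0.01 CPM. The log2 fold change of Got1 was 0.48 (SE 0.12, adjusted p = 0.060 by edgeR), and 0.62 without PTU mouse 9. Got1 passed 0.05 under 3 of 16 alternatives. Over all 16 its adjusted p ran from 0.00338 to 0.367, both by edgeR. Oat and Aldh4a1, which lie wholly inside other gene models, had 0 counts in each library, which is not read as absence.

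Transport of GABA and glutamate had 0 calls among 6 tested plasma membrane carriers, 5 mitochondrial carriers and 3 vesicular glutamate transporters. With 2.12% of all tested genes called, 0 calls in so few genes are not read as a result, here or in the other roles. Some of these carriers, Slc6a11 among them, were also on the marker lists of astrocytes or excitatory neurons. The GABA transporter Slc6a11, the glutamate transporter Slc1a1 and the mitochondrial glutamate carrier Slc25a22 differed by -0.07, 0.05 and 0.09 in log2 fold change (adjusted p = 0.815, 0.928 and 0.822 by edgeR).

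The remaining roles also had 0 calls. Of 6 genes for other routes to GABA and decarboxylase paralogs, Aldh1a1, an aldehyde dehydrogenase that can make GABA from putrescine-derived aldehyde, averaged 1.02 ± 0.06 without TH and 1.75 ± 0.53 CPM with it (SD, n = 4 per group, log2 fold change 0.77, adjusted p = 0.293 by edgeR). Aldh9a1, which acts on the same kind of aldehyde and was chosen after its values were seen, was lower in PTU+TH without overlap, at 74.1 ± 6.32 CPM in PTU against 58.9 ± 8.69 CPM (SD, n = 4 per group, log2 fold change -0.33, adjusted p = 0.191 by edgeR). The 6 genes that take the carbon of GABA onward had a median log2 fold change of 0.17, and of the 3 tested genes of pyridoxal phosphate supply Pdxk, the kinase of the vitamin, was at 43.9 ± 7.99 and 53.2 ± 1.60 CPM (SD, n = 4 per group, log2 fold change 0.28, adjusted p = 0.328 by edgeR).

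**Figure D3:**
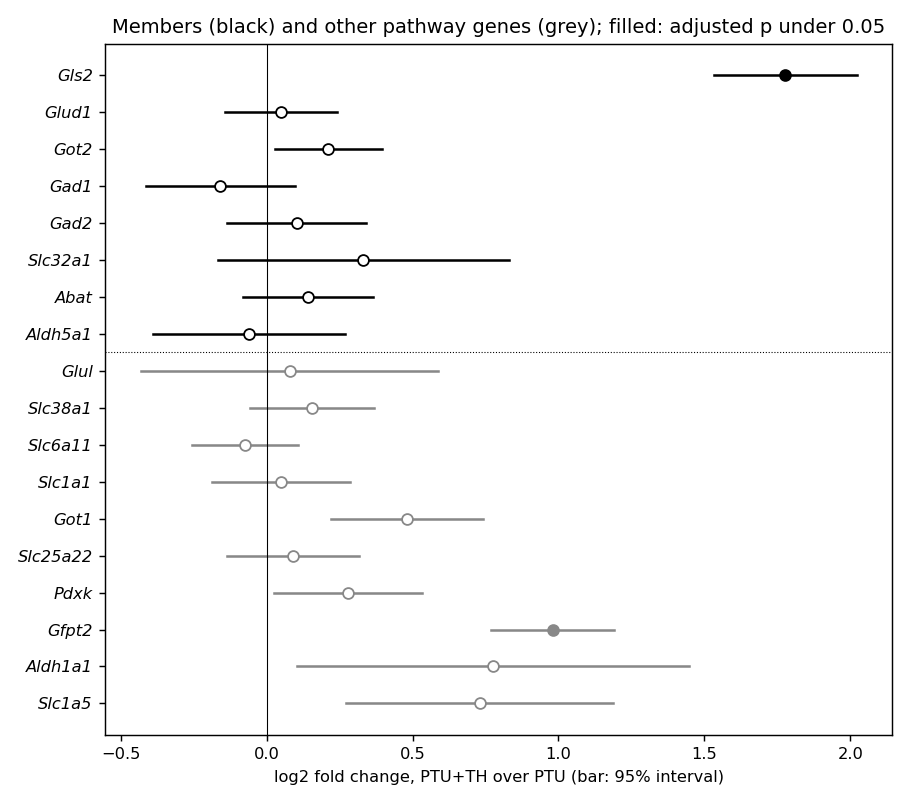
Log2 fold change of PTU+TH over PTU with its 95% interval from the edgeR fit (x axis) for the 8 members (black) and named pathway genes (grey), with filled points for an adjusted p under 0.05. Gls2 at 1.78 and Gfpt2 at 0.98 are the filled points, and the intervals of 6 of the other 7 members include 0.

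The genes whose profile over the 8 libraries was most like that of Gls2 were sought among 12946 tested genes that averaged 1 CPM or more, members and unnamed gene models left out. Likeness was the root mean square difference of log2 CPM after each gene was centred on its own mean, which follows the difference between the groups because that is the largest part of the profile. The nearest were Col9a2 (0.10) and Arhgef37 (0.11), followed by Hapln4, Prkcq and Deptor (each 0.24). Col9a2, a collagen chain gene, had its highest values in mice 13 and 14, at 37.6 and 32.4 CPM, against 27.7 and 27.2 CPM in mice 15 and 16, and in Gls2 too mice 13 and 14 lay above mice 15 and 16. By the largest single difference, Col9a2, Arhgef37 and Prkcq were again among the nearest 5, and Gabrd and Stac2 took the place of Hapln4 and Deptor. These values rest on 8 libraries that share the group difference, and describe likeness of profile alone.

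**Figure D4:**
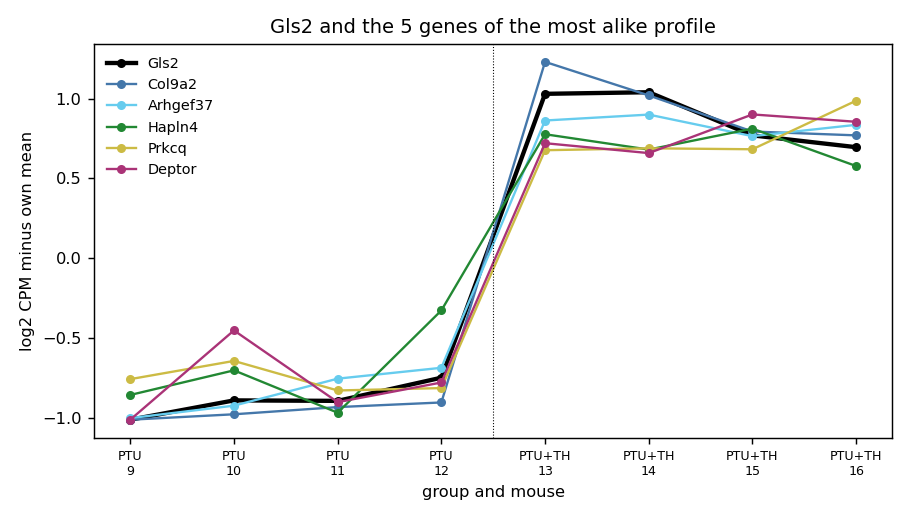
Log2 CPM of Gls2 (black) and of the 5 genes with the most alike profile, each minus its own mean (y axis), in the 8 libraries by group and mouse (x axis); lines join values of a gene and do not show time. All 6 genes lie below 0 in the 4 PTU libraries and above 0 in the 4 PTU+TH libraries.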

How the data were processed

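Whole-number counts of reads per gene symbol, as deposited by the authors in 1 file per library, were used without change. Bowtie2 2.5.3 and the builds mm10 and GRCm38 are named in the submitters' processing notes; the counting program, annotation, strand setting and treatment of introns are not given in the sources used here. Files held 0 rows that name no gene, and 26684 symbols had no count. Per the labels, cDNA was made with SMART-Seq v4. Groups were compared in edgeR 4.0.16 under R 4.3.3 (filterByExpr, TMM, robust quasi-likelihood, group as the only term, Benjamini-Hochberg over all tested genes, two-sided, called at an adjusted p under 0.05), and the scripts were tested on simulated data. Libraries came from separate mice, and pairs within a group differed beyond sampling noise (chi-square per degree of freedom 8.38 to 72.6 in 12 pairs). CPM was computed here after TMM, SE is the log2 fold change over the root of F, and log2 CPM used a prior count of 2. Positions and lengths are from GENCODE M21. The members and lists were chosen with earlier results of these data known. Text names the 8 members, called pathway genes, 7 fixed pathway genes and the 2 largest uncalled changes above 1 CPM; Gfpt1, Gad1os, Spryd4, Slc6a12, Oat, Aldh4a1 and Aldh9a1 were added after their values were seen, as were the markers and overlapping genes named. Some pathway genes are not reported here. Alternatives were RLE, upper quartile and no scaling beyond totals, DESeq2 1.42.0, limma 3.58.1 voom, other filters, the 6 libraries with Y-linked counts and leaving out each library.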

Additional observations from a re-analysis of the deposited data

Results flagged for a closer look

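In 36 groups of 4 values (18 named genes in both groups), 2 had a single library far from the other 3, where chance gives about 5%, or 1.8 groups. Glud1 reached 80.1 CPM in mouse 15 of PTU+TH, below 87.7 to 88.8 CPM in the other 3, a gap of 0.88 of the range. Slc25a22 reached 145.2 CPM in mouse 9 of PTU, above 108 to 114.3 CPM (0.83). Of the 18 named genes, 10 had their highest PTU value in mouse 9, among them Gad1, Slc32a1 and Abat of the 8 members, and 9 had their highest PTU+TH value in mouse 14; a common source was not tested.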

How the results depend on the processing

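Gls2 was the 1 member called under all 16 alternatives, with log2 fold changes of 1.73 to 1.92, and the other 7 members were called under none. Of these 7, Aldh5a1 alone changed sign. Since the rise of Gls2 was known when it was chosen, its calls describe dependence on the processing and are not read as further support. The main fit called 2.12% of all tested genes. Against 368 genes called in all (70.1% higher), DESeq2 called 748, the 6 libraries with Y-linked counts 58 (89.7% higher), and fits that each left out a library 182 (without PTU+TH mouse 15) to 499 (without PTU mouse 9), with 80.6% higher without PTU mouse 10. Among pathway genes 1 was called, 3 with DESeq2 (Gfpt2, Slc1a5 and Got1), 3 with no filter (Gfpt2, Got1 and Slc6a12) and 1 to 3 when a library was left out (Gfpt2, Got1 and Pdxk without PTU mouse 9). The 6 libraries hold fewer mice; otherwise the cause was not tested. Log2 fold changes of Glul and Slc1a1 changed sign when a library was left out, from -0.071 to 0.253 and from -0.032 to 0.112. Scaling moved the median of all genes to between -0.03 and 0.01. The order of members by level per length depended on the length used, including lengths free of other gene models, which were added after the values were seen. The number of mice, 4 per group, limits the precision of small changes. No paired analysis was possible because no mouse number occurs in both groups.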

Other observations

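Slc6a12, the betaine and GABA transporter BGT1, did not pass the filter on low counts. It had 0, 0, 0 and 3 counts in PTU mice 9, 10, 11 and 12 and 10, 12, 29 and 2 counts in PTU+TH mice 13, 14, 15 and 16, so the groups overlapped at the lowest PTU+TH library, and it was called in the fit without a filter, and was not tested in the filtered fit of all 8 libraries.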
